A study of Mus musculus with 29 samples.

Results

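The collagen genes of the mouse colon were followed through 6 models of colitis. They were taken as every protein-coding gene whose symbol is written Col, a number, the letter a and a number, which gave 44 genes of the 54532 in the count table, 21918 of which are protein-coding. Of these 44, 38 had a mean count of at least 3 over the 29 mice and entered the test together with all other genes above that limit, 18616 in all. The 6 that did not were Col2a1, Col6a6, Col9a1, Col10a1, Col19a1 and Col26a1. Their highest count in any mouse was 1 for Col2a1, 3 for Col10a1 and Col19a1, 7 for Col6a6 and Col9a1, and 18 for Col26a1, in DSS mouse 6.

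Collagens are proteins of the extracellular matrix built from 3 chains wound into a triple helix, and each gene encodes 1 kind of chain. Fibrillar collagens such as types I, III and V assemble into the fibrils that give the submucosa and the muscle layer of the gut their tensile strength, and are made mainly by fibroblasts and smooth muscle cells. Type IV collagens form the sheet-like network of basement membranes under the epithelium and around vessels and muscle cells, and types VII, XV, XVII and XVIII lie at or near that membrane. Other classes are the beaded filaments of type VI, the short-chain networks of type VIII, and chains that decorate the surface of fibrils. By class, the 44 genes comprised 11 fibrillar chains, 6 type IV chains, 4 chains of the basement membrane zone, 6 type VI chains, 3 short-chain network chains, 9 fibril-associated chains and 5 others, most of them membrane-bound.

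RNA of colon segments from 29 mice was sequenced in 9 groups. Untreated Balb/C mice (WT controls, n = 3) were the controls for Balb/C mice given 3% dextran sulphate sodium (DSS), a detergent-like polymer that injures the epithelium, for 5 days and culled on day 10 (n = 3), for Balb/C mice given 3 mg of the hapten DNBS rectally (n = 3) and for Balb/C mice treated with IL10 blocking antibody (the IL10 group, n = 4), for which the protocol gives 750 µg of antibody to the IL-10 receptor and a cull after at most 4 weeks. Untreated Balb/C Rag2-/- mice (n = 3), which lack T and B lymphocytes by genotype, were the controls for the mice called TRUC. These are untreated Balb/C Tbx21-/- x Rag2-/- mice, which develop colitis spontaneously (n = 4). Untreated C57BL/6 Rag1-/- mice (n = 3) were the controls for Rag1-/- mice given 500000 naive CD4 T cells and culled after 6 to 8 weeks (T-cell transfer, TCT, n = 3), and for Rag1-/- mice given 50 µg of an activating antibody to CD40 and culled on day 7 (anti-CD40, n = 3). The study's methods and protocol text differ from the labels on the strain and cull day of the DSS mice. They also differ on the Rag genotype of the T-cell recipients. For the IL10 model the paper describes Il10-/- mice that received microbiota by gavage, where the labels give Balb/C mice treated with antibody. The labels were followed here. DSS, DNBS and the IL10 group share their controls, as do TCT and anti-CD40. Nothing says that the mice of a group came from separate litters or cages, so a p-value measures only the spread between these mice. Whole pieces of colon were used, and a change in the number of cells that make a transcript cannot be told apart from a change in transcript per cell.

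Libraries held 10725564 to 14977094 counts on genes, and levels are given as CPM, the usual counts relative to library size, here after TMM scaling of the libraries. Over these depths 3 counts, taken as the limit of detection, correspond to 0.179 to 0.313 CPM. The transcripts of the targeted genes did not separate the groups as labelled. Rag1 was counted 20 to 33 times in the TCT libraries. It was counted 0 to 4 times in the labelled Rag1 controls, 0 to 2 times in anti-CD40 and at most 3 times in any other group. Il10 was counted 61 to 111 times in the IL10 group, 14 to 88 times in DSS and 1 to 4 times in the WT controls. Rag2 was counted 6 to 99 times in the 13 libraries labelled Rag1 control, anti-CD40, Rag2 control and TRUC and 0 or 1 times in the other 16, and Tbx21 26 to 52 times in the 4 TRUC libraries against 1 to 7 times in their controls, although a disrupted gene can still be transcribed and gene counts do not show which part the reads cover. H2-Ea-ps, the mouse locus of the MHC class II E alpha chain, which C57BL/6 mice do not transcribe and Balb/C mice do, had 784 to 3956 counts in the same 13 libraries and 0 or 1 in the 16 labelled WT control, DSS, DNBS, IL10 and TCT. This goes against the labelled background of several groups. The difference falls within 1 comparison, TCT against the Rag1 controls. Collagen counts of TCT are therefore also given against the WT controls, with which TCT shares the H2-Ea-ps state. So are the values of members for which that control changed a call or the direction of a call. The TCT changes of Col4a3, Col6a4, Col8a2, Col17a1, Col22a1 and Col28a1 kept their direction and passed against the WT controls, at -1.59, 1.63, -2.24, 2.23, 2.06 and -1.13 on the log2 scale (adjusted p of 0.00079 to 0.0184, edgeR). Colon epithelial markers were present in every group, with the summed CPM of 6 genes at 5427 in the lowest mouse and 15823 in the highest.

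Among the collagen genes, levels per length spanned from 67.6 CPM per kb of exon for Col3a1, the chain of type III fibrils, to 0.0032 CPM per kb for Col2a1, the cartilage collagen. Col3a1 alone made up 21.5% of the summed per-length level of the 44 genes. It was followed by Col6a1 at 44.2, Col1a1 at 35.7, Col4a1 at 30.0, Col4a2 at 24.9 and, after Col1a2, Col6a2 at 18.2 CPM per kb. Types I, III, IV and VI thus supplied the 7 highest chains. Of the genes described below for a change shared by several models, Col18a1 stood at 10.8 CPM per kb, Col8a2 at 0.628, Col17a1 at 0.301 and Col4a3 at 0.0458.

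The DNA just upstream of the members on which the results turn is shown here, since they moved together, moved in opposite directions or differed along the line drawn by H2-Ea-ps counts. Sequences are from RefSeq on GRCm38.p6, 5′ to 3′ on the strand of the gene, and end before the first annotated exon base. Windows were found for 35 of the 44 members. Capitals mark the letters TATAAA of the TATA box, the letters CCAAT of the box named after them and the letters GGGCGG of the GC box, each read on both strands. In Col8a2 the last pair of GC box matches overlaps. The windows are, in order, chr1:45311288-45311537 (plus strand) for Col3a1, chr10:77166549-77166780 (minus) for Col18a1, chr19:47692095-47692292 (minus) for Col17a1, chr4:126286544-126286792 (plus) for Col8a2, chr9:105960644-105960893 (minus) for Col6a5, and chrX:141475169-141475384 (plus) and chrX:141474077-141474326 (minus) for Col4a5 and Col4a6.
Col3a1: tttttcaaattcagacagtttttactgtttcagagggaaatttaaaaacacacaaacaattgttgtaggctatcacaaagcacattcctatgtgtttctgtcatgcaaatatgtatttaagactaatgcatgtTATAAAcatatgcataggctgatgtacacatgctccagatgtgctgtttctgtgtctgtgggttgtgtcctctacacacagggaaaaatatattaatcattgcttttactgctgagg
Col18a1: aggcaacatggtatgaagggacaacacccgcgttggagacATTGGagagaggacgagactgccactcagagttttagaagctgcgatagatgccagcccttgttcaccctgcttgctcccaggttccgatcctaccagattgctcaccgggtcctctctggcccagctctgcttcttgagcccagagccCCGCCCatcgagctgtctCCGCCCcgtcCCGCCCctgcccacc
Col17a1: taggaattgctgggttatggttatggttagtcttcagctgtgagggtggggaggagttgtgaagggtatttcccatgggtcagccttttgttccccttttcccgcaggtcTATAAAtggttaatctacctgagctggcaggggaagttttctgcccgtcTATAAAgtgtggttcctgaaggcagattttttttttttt
Col8a2: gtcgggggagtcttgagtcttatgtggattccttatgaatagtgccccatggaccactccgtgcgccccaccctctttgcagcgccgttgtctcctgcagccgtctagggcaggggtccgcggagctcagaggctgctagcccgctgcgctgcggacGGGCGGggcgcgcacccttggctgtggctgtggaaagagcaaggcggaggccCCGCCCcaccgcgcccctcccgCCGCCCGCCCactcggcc
Col6a5: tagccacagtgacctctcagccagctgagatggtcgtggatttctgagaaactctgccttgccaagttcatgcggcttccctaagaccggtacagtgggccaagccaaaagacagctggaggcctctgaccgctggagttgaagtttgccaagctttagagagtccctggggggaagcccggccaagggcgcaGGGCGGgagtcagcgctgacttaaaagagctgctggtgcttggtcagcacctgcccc
Col4a5: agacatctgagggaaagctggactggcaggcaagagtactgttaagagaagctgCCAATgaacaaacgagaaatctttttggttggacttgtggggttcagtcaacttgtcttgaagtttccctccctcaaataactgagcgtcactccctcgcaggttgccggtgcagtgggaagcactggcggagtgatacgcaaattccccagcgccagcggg
Col4a6: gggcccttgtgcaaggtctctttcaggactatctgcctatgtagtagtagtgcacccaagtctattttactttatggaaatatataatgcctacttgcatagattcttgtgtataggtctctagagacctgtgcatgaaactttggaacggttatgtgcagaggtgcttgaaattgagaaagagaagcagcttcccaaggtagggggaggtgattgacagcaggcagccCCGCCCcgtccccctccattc
In the windows shown, Col17a1 carries 2 TATAAA matches and Col3a1 carries 1, Col18a1 carries 3 GC boxes and 1 CCAAT box, and Col8a2 carries 4 GC boxes in a window of 69.9% GC. Col18a1 has another window, chr10:77113706-77113955 (minus), which holds neither box and has 241 of its 250 bases in exons. The window nearest the annotated start of the gene was shown. Over the 250 upstream bases, on both strands, TATAAA was found in 13.2% of the 38 windows of collagen genes and in 12.4% of all 32851 promoters, CCAAT in 34.2% and 33.8%, GGGCGG in 57.9% and 32.7%, and TGACTCA, the letters bound by AP-1, in 2.63% and 4.46%. These are matches of letters and not sites of binding. Col4a5 and Col4a6 lie head to head on chromosome X with 1308 bases between their annotated starts, Col4a3 and Col4a4 on chromosome 1 with 71 bases between them, and the first exons of Col4a1 and Col4a2 on chromosome 8 overlap by 22 bases.

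The collagen genes moved in opposite directions in different models. A member was called where edgeR's quasi-likelihood F test gave an adjusted p below 0.05. In DSS 8 of 38 were higher (17.7% of all genes) and 1 was lower (16.3%), or 23.7% in all against 34% of all genes. In DNBS 8 were higher (3.95% of all genes) and 1 lower (2.21%), or 23.7% against 6.17%. In the IL10 group 4 were higher (27.2%) and 19 lower (26.1%), or 60.5% against 53.3%. TRUC had 2 higher (22.4%) and 10 lower (23.4%), or 31.6% against 45.8%, TCT 5 higher (16.1%) and 5 lower (14%), or 26.3% against 30.1%, and anti-CD40 1 higher (10.9%) and 6 lower (10.7%), or 18.4% against 21.6%. Against the WT controls TCT had 4 higher (16.9%) and 6 lower (13.8%), or 26.3% against 30.8%, and against the Rag2 controls anti-CD40 had 1 higher (12.4%) and 5 lower (11.8%), or 15.8% against 24.2%. Members lower in the IL10 group were thus 19 of 38, where 26.1% of all genes were lower. The count of members higher was 8 in TRUC and 10 in TCT with DESeq2 and 7 and 9 with edgeR on the 2 groups alone. In DNBS it was 1 without DNBS mouse 14 or without WT control mouse 2, 3 without either of the other WT controls, and 0 with edgeR on the 2 groups alone (12 at an unadjusted p under 0.05). The median log2 change of the members was 0.41 in DSS, 0.41 in DNBS, 0.29 in TCT, -0.25 in anti-CD40, -0.29 in TRUC and -0.68 in the IL10 group, while that of all genes stayed between -0.03 and 0.02. Without anti-CD40 mouse 7 the count lower in anti-CD40 was 2 and without mouse 8 it was 10. In the IL10 group 25 of 38 members had no overlap between mice of the 2 groups (55.7% of all genes), against 10 of 38 in anti-CD40 (39.6%).

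**Figure D1:**
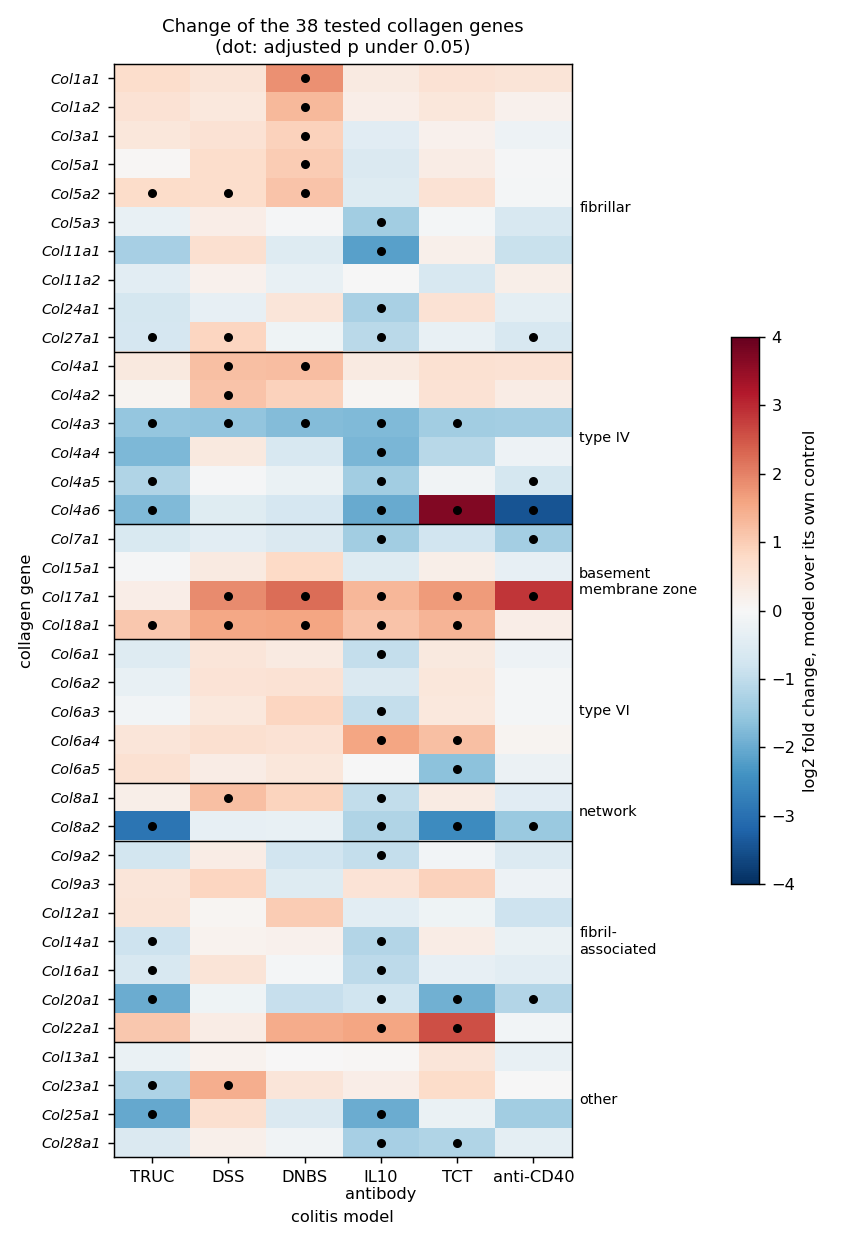
Log2 fold change of the 38 tested collagen genes (rows, by class) in each of the 6 models over its own control (columns). Red is higher and blue lower in the model, and a dot marks an adjusted p under 0.05. Dots of the fibrillar class are red in DNBS (5 genes) and blue in the IL10 group (4 genes), Col18a1 is red with a dot in 5 columns, and Col4a6 is red in TCT and blue in anti-CD40.

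Across the 6 models 32 of the 38 members passed the threshold at least once, 11 of them only upward, 17 only downward, and 4 (Col4a6, Col8a1, Col23a1 and Col27a1) upward in 1 model and downward in another. Col6a2, Col9a3, Col11a2, Col12a1, Col13a1 and Col15a1 passed it in none. The share of all genes that passed at least once was not computed, so these counts are not read as particular to collagens. Col4a6 passed upward only in TCT against the Rag1 controls. Against the WT controls it was lower in TCT (-0.89, adjusted p = 0.0210, edgeR). An F test that a member's change was equal in the 6 models passed the adjusted threshold for 31 of 38 members, where it passed for 60.5% of all genes. By class these were 9 of 10 fibrillar chains, 3 of 6 type IV chains, all 5 type VI chains, 3 of 4 of the basement membrane zone, both network chains, 6 of 7 fibril-associated chains and 3 of 4 others.

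Fibrillar collagens had their largest class median in DNBS, at 0.71 on the log2 scale. There 5 of 10 were higher (3.95% of all genes) and none lower (2.21%). Col1a1, the alpha 1 chain of type I collagen, stood at 165, 131 and 177 CPM in the WT controls and at 309.7, 1098 and 266 CPM in DNBS mice 11, 14 and 16. All 3 DNBS mice lay above all controls, and mouse 14 was far above the other 2. The log2 change was 1.82 ± 0.40 (SE, adjusted p = 0.0111, edgeR). Col1a2, the partner chain of type I, was at 209, 188 and 199 CPM in controls and 362, 821 and 279 CPM in DNBS, a log2 change of 1.29 ± 0.28 (adjusted p = 0.00896). Col3a1 was at 722, 682 and 549 CPM in controls and 1051, 1966 and 674 CPM in DNBS, so that the groups overlapped, with a log2 change of 0.92 ± 0.26 (adjusted p = 0.0364). Col5a2 and Col5a1, chains of type V collagen, which regulates the thickness of fibrils, were the others, Col5a2 at 184, 342 and 109 CPM against 102, 107 and 79.8 CPM (log2 change 1.14 ± 0.27, adjusted p = 0.0176) and Col5a1 with a log2 change of 1.01 ± 0.31 (adjusted p = 0.0494).

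These DNBS calls rested on mouse 14. Without it the log2 change was 0.87 for Col1a1 (adjusted p = 0.148, edgeR), 0.70 for Col1a2 (0.0971), 0.41 for Col3a1 (0.327) and 0.61 for Col5a2 (0.176). All 4 remained positive and none passed. Without WT control mouse 2 Col1a1 had an adjusted p of 0.0644, Col1a2 of 0.0508, Col3a1 of 0.101 and Col5a2 of 0.0552 at log2 changes of 0.95 or more, and the count of members higher in DNBS was 1 of 38 without either mouse, against 8 with all. The Col5a1 call also ended without mouse 14 (adjusted p = 0.478) or any WT control, and edgeR fitted to the DNBS and WT control mice alone called no collagen gene higher (12 at an unadjusted p under 0.05). Mesothelial markers (Msln, Upk3b, Wt1 and Lrrn4), which mark the outer lining of the gut, summed to 80.7 CPM in DNBS mouse 14, 14.1 in mouse 11 and 6.39 in mouse 16, the last with 1 of 4 at 0, against 1.60 to 6.89 in controls. Endothelial markers summed to 347 CPM in mouse 14, 237 in mouse 11 and 184 in mouse 16 against 164 to 178 in controls, with 1 of 6 higher in the test, and fibroblast markers to 588 to 968 against 639 to 866. Their part in the result was not tested.

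**Figure D2:**
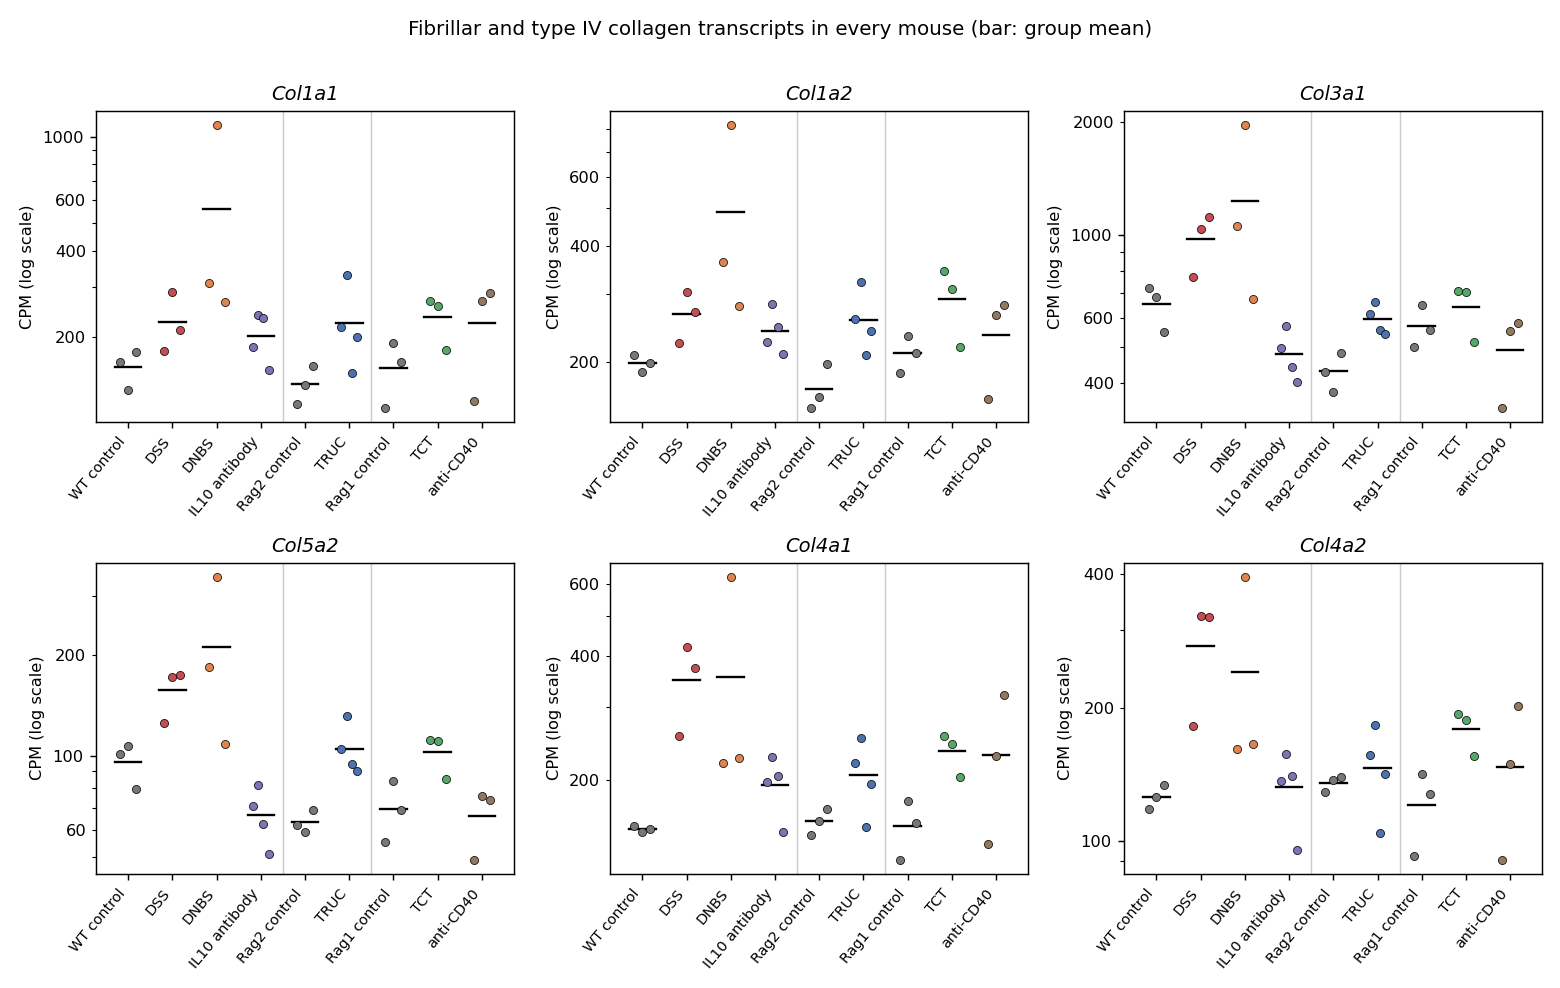
CPM on a log scale of the 4 fibrillar and 2 type IV transcripts named above each panel, with a point for each mouse, a bar for the group mean, and vertical lines between the 3 sets that share a control. In DNBS 1 mouse lies well above the other 2 in every panel (1098 CPM against 309.7 and 266 for Col1a1), and in DSS all 3 mice lie above the WT controls for Col4a1 and Col4a2.

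In DSS the fibrillar class was shifted upward by less (median 0.55), with 2 of 10 higher (17.7% of all genes) and none lower (16.3%). Col5a2 was at 126, 172 and 174 CPM against 102, 107 and 79.8 CPM in controls, at a log2 change of 0.71 ± 0.27 (adjusted p = 0.0464, edgeR). Leaving out any of WT control mice 1, 2 and 4 or DSS mice 6 and 8 ended that call, with an adjusted p of up to 0.159. Col27a1, a fibrillar chain known from cartilage, was at 30.8, 42.5 and 36.0 CPM against 21.3, 17.4 and 21.1 CPM (log2 change 0.87 ± 0.22, adjusted p = 0.00338). Neither gene overlapped between the groups. Col1a1 and Col3a1 had log2 changes of 0.52 ± 0.39 (adjusted p = 0.32) and 0.58 ± 0.26 (adjusted p = 0.082) in DSS, with every DSS mouse above every control. Fibroblast markers summed to 875 to 1397 CPM in DSS mice against 639 to 866 in controls, with 4 of 8 higher in the test, and all 6 endothelial markers were higher. Mesothelial markers summed to 36.1, 13.8 and 37.2 CPM in DSS mice 5, 6 and 8 against 1.60 to 6.89 in controls. Their part in the collagen values was not tested.

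The IL10 group went the other way: no fibrillar chain was higher (27.2% of all genes), 4 of 10 were lower (26.1%) and the class median was -0.55. Col11a1, a minor chain of thin fibrils, was at 1.37, 1.86 and 1.97 CPM in the WT controls and at 0.421, 0.312, 0.257 and 0.522 CPM in the IL10 group. These were 18, 28 and 24 counts in the controls and 5, 3, 3 and 5 in the IL10 group, at or close to the limit of detection. The groups did not overlap, and the log2 change was -2.18 ± 0.47 (adjusted p = 0.000568, edgeR). Col5a3 fell by 1.38 on the log2 scale (SE 0.29, adjusted p = 0.00045), Col24a1 by 1.31 (SE 0.43, adjusted p = 0.014) and Col27a1 by 1.06 (SE 0.21, adjusted p = 0.000195). Col24a1 was counted 11, 5, 9 and 3 times in the IL10 group, and its call was lost without WT control mouse 1 or 2 (adjusted p up to 0.0561). The abundant chains did not pass, although only 2 of the 10 fibrillar chains had a positive log2 change. Among them Col5a1 lay below every control, at 46.2, 60.3, 49.5 and 34.7 CPM against 73.3, 67.6 and 72.3 CPM. Col1a1, at 185, 239.5, 233 and 154 CPM, had a log2 change of 0.36 ± 0.37 (95% interval -0.36 to 1.09), and Col3a1, at 499, 570.3, 441 and 403 CPM, one of -0.44 ± 0.24 (-0.91 to 0.02). There were 2.40 ± 0.363 Col3a1 reads per Col1a1 read in the IL10 group (SD, n = 4) against 4.23 ± 1.07 in controls (n = 3), without overlap (two-sided exact permutation p = 0.0286, the smallest this design can give, and 0.171 when adjusted over the 18 ratios compared). The ratio was also lower without overlap in TCT, at 2.75 ± 0.109, and anti-CD40, at 2.33 ± 0.478, against 3.73 ± 0.590 in the Rag1 controls (n = 3 each, exact permutation p = 0.1, the smallest possible, and 0.257 adjusted).

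In the IL10 group markers of both cell types that make most fibrillar collagen were lower as well. Of 8 fibroblast markers 5 were lower, at 408 to 503 summed CPM against 639 to 866 in controls, and of 8 smooth muscle markers 7 were lower, at 2756 to 5168 against 6886 to 8470 summed CPM. Epithelial markers were higher for 5 of 6. The part of this shift in the collagen values was not tested.

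In TRUC 1 of 10 fibrillar chains was higher (22.4% of all genes), 1 lower (23.4%) and the class median was -0.12. Col5a2 was at 104, 131, 94.3 and 89.8 CPM against 61.9, 59.2 and 68.9 CPM in the Rag2 controls, without overlap, at a log2 change of 0.73 ± 0.26 (adjusted p = 0.0254, edgeR). The call was lost without Rag2 control mouse 1 or 2 or TRUC mouse 3, with an adjusted p of up to 0.0807. Col27a1 fell by 0.67 (SE 0.20, adjusted p = 0.00968, and 0.0687 without Rag2 control mouse 4). Col1a1 (log2 change 0.71 ± 0.37), Col1a2 (0.59 ± 0.26) and Col3a1 (0.46 ± 0.24) did not pass in TRUC, at adjusted p of 0.125, 0.0629 and 0.122, although all 4 TRUC mice lay above the controls for Col1a2 and Col3a1.

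TCT had none of 10 fibrillar chains past the threshold in edgeR (30.1% of all genes), 0 higher and 1 lower at an unadjusted p under 0.05, while DESeq2 called 2 higher and none lower. Anti-CD40 had 1 lower (10.7% of all genes), Col27a1, with a log2 change of -0.64 ± 0.22 (adjusted p = 0.0406), which was lost without any 1 of the Rag1 controls or anti-CD40 mouse 6 or 7 (up to 0.194). Their Col1a1 values overlapped those of the Rag1 controls (114, 191 and 165 CPM), at 266, 256 and 180.1 CPM in TCT and 119.5, 268 and 285 CPM in anti-CD40.

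The changes of the abundant fibrillar chains differed between models. The F test of equal change gave an adjusted p of 0.000161 for Col5a2, 0.000747 for Col3a1, 0.0132 for Col1a2 and 0.0161 for Col1a1 (edgeR). For Col3a1 the 6 log2 changes ran from -0.44 in the IL10 group to 0.92 in DNBS.

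The 2 abundant type IV chains, Col4a1 (chr8:11198423-11312826, minus strand) and Col4a2 (chr8:11312805-11449287, plus strand), form the network of nearly every basement membrane, and both were higher in DSS. Col4a1 was at 155, 149 and 152 CPM in the WT controls and at 255, 420.4 and 375 CPM in DSS, and Col4a2 at 118, 125 and 134 CPM and at 182, 323 and 320.2 CPM. Neither gene overlapped between the groups, and the log2 changes were 1.21 ± 0.31 (adjusted p = 0.00425, edgeR) and 1.13 ± 0.30 (adjusted p = 0.00581). In DNBS Col4a1 was at 219.5, 625 and 226 CPM, a log2 change of 1.23 ± 0.31 (adjusted p = 0.0208), and Col4a2 at 161, 395 and 166 CPM, a log2 change of 0.94 ± 0.30 (adjusted p = 0.0625). Without DNBS mouse 14 the Col4a1 change was 0.56 (adjusted p = 0.237), and the call was also lost without any one of the 3 WT controls (adjusted p = 0.0813 without mouse 2). Endothelial markers summed to 256 to 341 CPM in DSS, and in DNBS to the values given above, against 164 to 178 in controls, and their part in the type IV values was not tested. In TRUC, the IL10 group, TCT and anti-CD40 neither chain passed, with log2 changes of 0.36 to 0.61 for Col4a1 and 0.07 to 0.57 for Col4a2.

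Col4a1 and Col4a2 chains join in a fixed 2 to 1 proportion, so the balance of their transcripts was compared. In the Rag2 controls there were 1.17 ± 0.0391 Col4a1 reads per Col4a2 read and in TRUC 1.41 ± 0.0419 (SD, n = 3 and 4). In the WT controls there were 1.21 ± 0.0888 and in the IL10 group 1.48 ± 0.0557 (n = 3 and 4). Both pairs of groups were apart (two-sided exact permutation p = 0.0286 each, the smallest possible, adjusted p = 0.171 over 18 ratios). The ratio was also higher without overlap in DNBS, at 1.43 ± 0.126, and in anti-CD40, at 1.55 ± 0.0343 against 1.29 ± 0.0776 in the Rag1 controls, where 3 mice against 3 cannot give a p below 0.1. It overlapped the controls in DSS (1.29 ± 0.114) and TCT (1.31 ± 0.00928). None of the 18 ratios passed an adjusted p of 0.05.

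**Figure D3:**
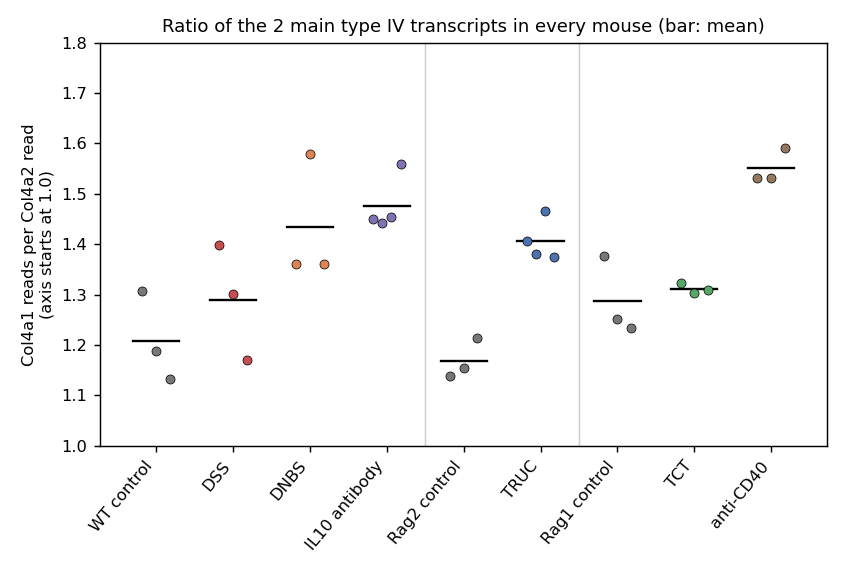
Col4a1 reads per Col4a2 read in every mouse, with a bar for the group mean and vertical lines between the sets that share a control; the axis starts at 1.0. TRUC, DNBS, the IL10 group and anti-CD40 lie wholly above their controls, with means of 1.41, 1.43, 1.48 and 1.55, and DSS and TCT overlap theirs.

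The minor type IV chains Col4a3, Col4a5 and Col4a6 were lower in several models in which the main chains were not. The fourth, Col4a4, with at most 20 counts in any mouse, passed downward in 1 model, the IL10 group. Its log2 changes ran from -1.83 to 0.40 over the 6 models. Col4a3, a chain known from the basement membranes of kidney, lung and ear, was a low transcript in colon, at 10, 16 and 14 counts in the WT controls, 6, 10 and 8 in the Rag2 controls and 13, 8 and 11 in the Rag1 controls. The counts were 4, 6 and 4 in DSS, 4, 4 and 4 in DNBS, 4, 4, 2 and 2 in the IL10 group, 2, 1, 4 and 3 in TRUC, 8, 2 and 1 in TCT and 4, 1 and 7 in anti-CD40. Most colitis libraries were thus close to the limit of detection. The log2 change was -1.58 ± 0.48 in DSS (adjusted p = 0.0132, edgeR), -1.73 ± 0.49 in DNBS (0.0372), -1.78 ± 0.47 in the IL10 group (0.003), -1.56 ± 0.51 in TRUC (0.0161) and -1.38 ± 0.51 in TCT (0.0417), and -1.36 ± 0.50 in anti-CD40 without passing (0.0536). In DNBS leaving out any of the 6 mice ended the call (adjusted p up to 0.111). In TCT it was ended by leaving out Rag1 control mouse 2 or 4 or TCT mouse 3 or 5 (up to 0.196), and in TRUC by leaving out Rag2 control mouse 2 or TRUC mouse 3 (up to 0.0621). Of the exon bases of Col4a3, 5.65% are shared with an antisense gene, C430014B12Rik, and the library kit does not mark strand.

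Col4a5, a chain of the basement membranes of smooth muscle and epithelium (chrX:141475385-141689234, plus strand), fell in 3 models. It was at 22.5, 23.0 and 22.0 CPM in the WT controls and 7.16, 9.97, 7.72 and 9.19 CPM in the IL10 group, a log2 change of -1.41 ± 0.18 (adjusted p = 2.92e-06, edgeR). In TRUC it was at 8.11, 5.87, 6.78 and 8.71 CPM against 15.7, 19.3 and 15.7 CPM in the Rag2 controls, a log2 change of -1.19 ± 0.19 (adjusted p = 2.94e-05). In both models every mouse lay below every control. In anti-CD40, at 7.70, 6.68 and 12.9 CPM against 16.7, 13.2 and 14.8 CPM, the log2 change was -0.70 ± 0.20 (adjusted p = 0.0147), and the call was lost without anti-CD40 mouse 7 (-0.52, adjusted p = 0.117), anti-CD40 mouse 6 or Rag1 control mouse 2. In DSS (-0.05, 95% interval -0.43 to 0.33), DNBS (-0.28, -0.66 to 0.10) and TCT (-0.14, -0.53 to 0.24) it did not pass, and against the WT controls TCT had -0.74 ± 0.20 (adjusted p = 0.00655).

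Smooth muscle markers were lower in the same TRUC and IL10 comparisons, 4 of 8 in TRUC (3079 to 4549 summed CPM against 6391 to 7003) and 7 of 8 in the IL10 group. In anti-CD40 none of 8 was lower, although the summed level spread from 2901 to 7291 CPM against 4346 to 5209. Their part in the Col4a5 values was not tested.

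Col4a6, which lies head to head with Col4a5 (chrX:141165403-141474076, minus strand), differed along the same line as H2-Ea-ps. It was at 0 to 0.648 CPM, 0 to 8 counts, in the 13 libraries with H2-Ea-ps and at 2.14 to 10.5 CPM, 23 to 156 counts, in the 16 without. Of the 44 collagen genes only Col4a6 and Col6a5 had no overlap along that line, where 2.21% of all tested genes had none. By the labels the 13 libraries are those of mice without T cells and the 16 those of mice with T cells, so that the 2 divisions cannot be told apart. The untreated groups showed the split too: Col4a6 was at 8.91, 10.4 and 10.5 CPM in the WT controls and 0.442, 0.382 and 0.528 CPM in the Rag2 controls, a log2 change of -4.43 ± 0.37 (adjusted p = 2.81e-09, edgeR). In TCT it was at 5.50, 5.89 and 4.63 CPM against 0.648, 0.294 and 0.258 CPM in the labelled Rag1 controls, 3.71 ± 0.37 on the log2 scale (adjusted p = 7.49e-08). Against the WT controls the same TCT mice were lower, at -0.89 ± 0.29 (adjusted p = 0.021), so the direction in TCT depended on the control.

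Against labelled controls of the same H2-Ea-ps state Col4a6 fell in 3 models. In the IL10 group it was at 2.70, 2.60, 2.14 and 2.40 CPM against the 8.91 to 10.5 CPM of the WT controls, a log2 change of -2.01 ± 0.28 (adjusted p = 4.79e-06, edgeR). In TRUC the counts were 1, 3, 0 and 2 against 5, 5 and 7 in the Rag2 controls (log2 change -1.77 ± 0.53, adjusted p = 0.011, and 0.0526 without TRUC mouse 4). Pooled, 17 counts against 6 gave a level 3.62 times higher in the controls, with an exact 95% interval for counting error of 1.36 to 11.2. In anti-CD40 they were 0, 0 and 1 against 8, 4 and 3 in the Rag1 controls, and pooled, 15 counts against 1 gave a level 14.5 times higher in the controls (2.23 to 610). The edgeR change there was -3.45 ± 0.76 (adjusted p = 0.00303), which at such counts depends on the prior count.

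**Figure D4:**
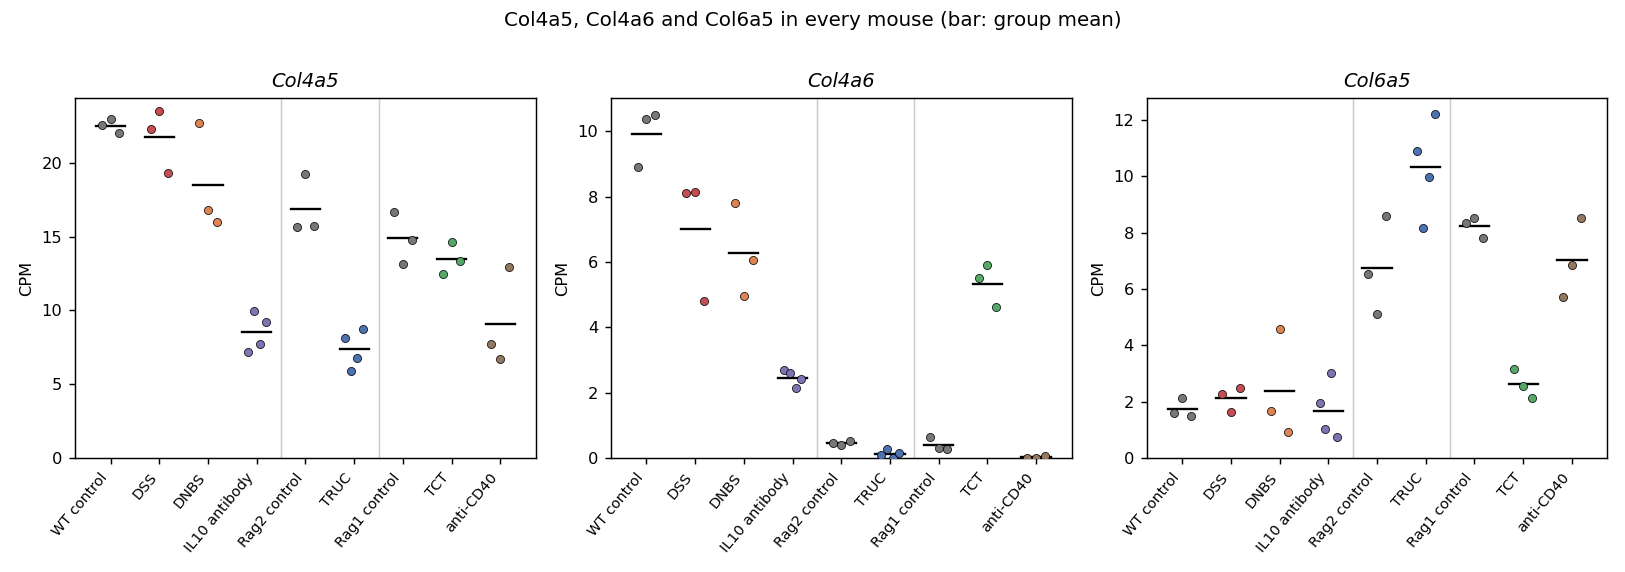
CPM of Col4a5, Col4a6 and Col6a5 in every mouse, with a bar for the group mean and vertical lines between the sets that share a control. Col4a6 is at 0 to 0.648 CPM and Col6a5 at 5.12 to 12.2 CPM in the Rag2 control, TRUC, Rag1 control and anti-CD40 groups, while the TCT mice lie with the WT control, DSS, DNBS and IL10 groups for both genes.

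Col6a5 (chr9:105856078-105960643, minus strand), a type VI chain, showed the reverse pattern, at 5.12 to 12.2 CPM in the 13 libraries with H2-Ea-ps and 0.731 to 4.57 CPM in the 16 without. Its change in TCT was -1.65 ± 0.40 against the labelled Rag1 controls (adjusted p = 0.0029, edgeR) and 0.58 ± 0.43 against the WT controls (adjusted p = 0.311). The Rag2 controls were higher than the WT controls by 1.95 ± 0.41 (adjusted p = 0.00245). Within 1 state it did not pass in any of the other 5 models, with log2 changes of -0.22 to 0.61. Col4a6 and Col6a5 were the only collagen genes that passed between these 2 untreated groups, 1 higher (3.25% of all genes) and 1 lower (4.86%), or 5.26% against 8.11% of all genes. Between the groups labelled Rag1 and Rag2 control none of 38 passed in edgeR (0.0698% of all genes were higher and 0.0537% lower, 0.124% together), with 1 higher and 0 lower at an unadjusted p under 0.05.

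In the basement membrane zone Col18a1 and Col17a1 were each higher in 5 models. Col18a1 (chr10:77052178-77166548, minus strand) encodes a proteoglycan of vascular and epithelial basement membranes, from which the fragment endostatin is cut. It was at 34.4, 36.9 and 41.7 CPM in the WT controls, 83.0, 113 and 131 CPM in DSS, 70.7, 197 and 73.2 CPM in DNBS and 81.3, 90.6, 92.3 and 70.7 CPM in the IL10 group. All 10 of these colitis mice lay above the 3 controls, and the log2 changes were 1.53 ± 0.33 (adjusted p = 0.000899, edgeR), 1.59 ± 0.33 (0.00742) and 1.15 ± 0.31 (0.00322). TRUC was at 84.3, 105, 61.4 and 70.5 CPM against 32.8, 35.3 and 46.4 CPM, a log2 change of 1.07 ± 0.31 (adjusted p = 0.00655). TCT was at 112, 149 and 83.3 CPM against 31.6, 56.3 and 47.4 CPM, a log2 change of 1.35 ± 0.32 (adjusted p = 0.00267), and 1.61 ± 0.33 against the WT controls (adjusted p = 0.000837). Neither of these groups overlapped its controls. Anti-CD40, at 34.5, 63.7 and 63.0 CPM, had a log2 change of 0.25 with a 95% interval of -0.37 to 0.88, and the test that the 6 changes were equal gave an adjusted p of 0.0397. Without DNBS mouse 14 the DNBS change was 0.94 (adjusted p = 0.0763).

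Col17a1 (chr19:47646344-47692094, minus strand), the transmembrane collagen by which hemidesmosomes anchor epithelial cells to the basement membrane, was highest in anti-CD40. It was at 6.20, 4.46 and 4.66 CPM there against 0.729, 0.663 and 0.688 CPM in the Rag1 controls, a log2 change of 2.86 ± 0.51 (adjusted p = 0.000486, edgeR). In the WT controls it was at 0.762, 0.266 and 0.410 CPM, or 10, 4 and 5 counts. DSS was at 1.57, 1.84 and 2.00 CPM, a log2 change of 1.90 ± 0.55 (adjusted p = 0.00978), and DNBS at 4.48, 1.08 and 1.11 CPM, a change of 2.24 ± 0.54 (0.0178). TCT, at 2.88, 1.79 and 2.13 CPM, had a change of 1.70 ± 0.53 (0.0169). These 4 models did not overlap their controls. The IL10 group, at 0.674, 1.97, 1.89 and 0.313 CPM, overlapped its controls at a change of 1.34 ± 0.55 (0.0437). TRUC did not pass, at 1.62, 1.60, 1.37 and 1.55 CPM against 1.24, 1.68 and 0.906 CPM (log2 change 0.27, 95% interval -0.66 to 1.19). The IL10 call was lost without WT control mouse 2 or 4 or IL10 mouse 2 or 3 (adjusted p up to 0.18), the DSS call without WT control mouse 2 (0.0586), the DNBS call without WT control mouse 2 or 4 or DNBS mouse 11 (up to 0.121) and the TCT call without Rag1 control mouse 3 or TCT mouse 1 (up to 0.0565). The changes differed between the 6 models (F test, adjusted p = 0.0134).

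**Figure D5:**
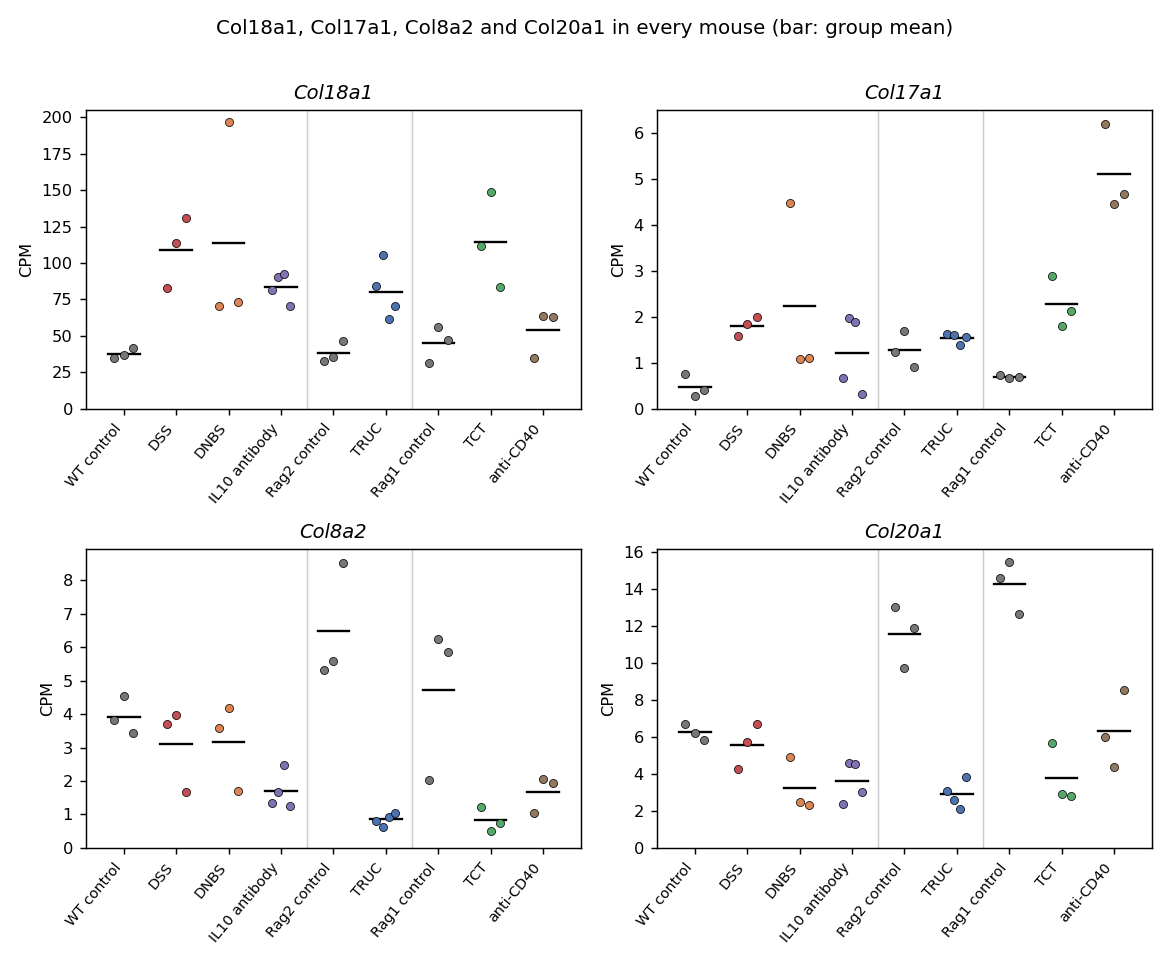
CPM of Col18a1, Col17a1, Col8a2 and Col20a1 in every mouse, with a bar for the group mean and vertical lines between the sets that share a control. Col18a1 lies above the controls in every colitis group but anti-CD40, which in turn has the highest Col17a1 mean (5.10 CPM), and Col8a2 and Col20a1 are lowest in TRUC and TCT among the groups compared with Rag controls.

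Col7a1, the anchoring fibril that ties the basement membrane to the stroma, went down rather than up. It was at 3.35, 3.19 and 3.20 CPM in the WT controls and 1.43, 1.14, 1.11 and 1.25 CPM in the IL10 group, a log2 change of -1.38 ± 0.35 (adjusted p = 0.00209, edgeR). In anti-CD40 it was at 1.22, 0.942 and 1.79 CPM against 3.65, 3.46 and 3.10 CPM, a change of -1.35 ± 0.37 (adjusted p = 0.0128). Both groups lay wholly below their controls. The anti-CD40 call was lost without anti-CD40 mouse 7 (-1.16, adjusted p = 0.0834) and against the Rag2 controls (adjusted p = 0.181). In the other 4 models the log2 change was between -0.43 and -0.77 without passing. Col15a1, the close relative of Col18a1, passed in no model, at log2 changes of -0.51 to 0.80.

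The network chain Col8a2 (chr4:126286793-126314330, plus strand), known from the membrane under the corneal endothelium and from vessel walls, and the fibril-associated chain Col20a1 fell in the same 4 models. Col8a2 was at 5.31, 5.58 and 8.53 CPM in the Rag2 controls and 0.811, 0.622, 0.916 and 1.06 CPM in TRUC, a log2 change of -2.91 ± 0.40 (adjusted p = 7.37e-06, edgeR). TCT was at 1.22, 0.513 and 0.741 CPM against 2.03, 6.26 and 5.85 CPM in the Rag1 controls, a change of -2.50 ± 0.45 (adjusted p = 0.000164). All TRUC and TCT mice were below their controls. The IL10 group, at 1.35, 1.66, 2.49 and 1.25 CPM against 3.81, 4.53 and 3.44 CPM, changed by -1.21 ± 0.38 (adjusted p = 0.0109), and anti-CD40, at 1.03, 2.06 and 1.94 CPM, by -1.48 ± 0.41 (adjusted p = 0.0133) with overlap. The anti-CD40 call was lost without Rag1 control mouse 3 or 4 or anti-CD40 mouse 6 (adjusted p up to 0.0788). In DSS and DNBS the changes were -0.33 (95% interval -1.09 to 0.44) and -0.31 (-1.08 to 0.46).

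Col20a1 was at 13.0, 9.71 and 11.8 CPM in the Rag2 controls and 3.09, 2.58, 2.11 and 3.82 CPM in TRUC, a log2 change of -1.98 ± 0.29 (adjusted p = 1.77e-05, edgeR). Against 14.6, 15.5 and 12.6 CPM in the Rag1 controls, TCT was at 5.67, 2.90 and 2.78 CPM (-1.91 ± 0.32, adjusted p = 6.72e-05) and anti-CD40 at 6.01, 4.37 and 8.53 CPM (-1.17 ± 0.31, adjusted p = 0.00885). None of these 3 groups overlapped its controls. The WT controls were lower than both Rag groups, at 6.70, 6.19 and 5.82 CPM, and against them TCT had -0.72 ± 0.32 (adjusted p = 0.0892). The IL10 group was at 2.36, 4.57, 4.54 and 3.03 CPM, a change of -0.78 ± 0.30 (adjusted p = 0.0295), which was lost without WT control mouse 1 or 2 or IL10 mouse 1 or 4 (up to 0.0985), and the anti-CD40 call was lost without anti-CD40 mouse 7 (-0.96, adjusted p = 0.0723). Adipose markers were lower in TRUC (4 of 4) and TCT (3 of 4) and enteric glia markers in TRUC (4 of 4) and the IL10 group (3 of 4). Their part in these values was not tested.

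Col8a1, which pairs with Col8a2 in type VIII collagen, was lower together with it in the IL10 group, while in other models the values of the 2 genes differed. Col8a1 was higher in DSS, at 19.7, 37.6 and 46.1 CPM against 15.8, 13.9 and 14.8 CPM (log2 change 1.22 ± 0.33, adjusted p = 0.00604, edgeR, and 0.0507 without DSS mouse 8), and lower in the IL10 group, at 8.85, 8.41, 9.26 and 3.13 CPM (-0.99 ± 0.31, adjusted p = 0.0107). Neither group overlapped the controls. In TRUC, where Col8a2 had its largest fall, Col8a1 had a log2 change of 0.24 (95% interval -0.39 to 0.87).

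Of the fibril-associated chains 4 of 7 were lower in the IL10 group (26.1% of all genes) and 3 of 7 in TRUC (23.4%). Beside Col20a1 these were Col14a1 and Col16a1, which bind the surface of fibrils, in both models, and Col9a2 in the IL10 group. Col14a1 had a log2 change of -1.19 ± 0.27 in the IL10 group (adjusted p = 0.000773, edgeR) and -0.82 ± 0.27 in TRUC (0.0144), and Col16a1 -1.06 ± 0.22 (0.000306) and -0.63 ± 0.22 (0.0198). Both TRUC calls were lost without Rag2 control mouse 4 (up to 0.0773), and the Col16a1 call also without TRUC mouse 4. In TCT Col16a1 did not pass against the Rag1 controls. Against the WT controls it was lower there, without overlap (-0.64 ± 0.23, adjusted p = 0.0394, edgeR). Col9a2 had -0.96 ± 0.34 in the IL10 group (0.0196, and up to 0.166 without WT control mouse 4 or IL10 mouse 3). Col22a1, a chain of tissue junctions, was higher instead. It was at 27, 15 and 8 counts in TCT against 1, 6 and 2 in the Rag1 controls, a log2 change of 2.57 ± 0.65 (adjusted p = 0.00406), and at 10, 9, 19 and 7 counts in the IL10 group against 1, 9 and 4 in the WT controls, a change of 1.58 ± 0.60 (adjusted p = 0.0298). On the CPM scale neither group overlapped its controls. The IL10 call was lost without WT control mouse 1 or 4 or IL10 mouse 3 (adjusted p up to 0.144).

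Type VI collagen, a filament that links fibrils to cells, changed in the IL10 group and TCT. In the IL10 group 2 of its 3 main chains were lower. Col6a1 was at 111, 144, 129 and 63.1 CPM against 224, 206 and 219.5 CPM (log2 change -0.95 ± 0.26, adjusted p = 0.00373, edgeR), and Col6a3 at 39.4, 53.4, 37.6 and 33.5 CPM against 86.4, 79.6 and 72.9 CPM (-0.96 ± 0.30, adjusted p = 0.0098). The third, Col6a2, did not pass there, at a log2 change of -0.56 ± 0.27 (adjusted p = 0.082), with every mouse of the group below every control. Col6a4, a chain that is a pseudogene in humans, was higher there, at 9.86, 8.83, 19.8 and 19.0 CPM against 4.49, 4.93 and 4.92 CPM (1.59 ± 0.32, adjusted p = 0.000295). It was also higher in TCT, at 19.9, 16.3 and 8.24 CPM against 6.64, 6.48 and 6.11 CPM (1.21 ± 0.33, adjusted p = 0.00726). In neither model did the groups overlap, and in the other 4 models Col6a4 had log2 changes of 0.12 to 0.64 without passing.

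Among the remaining chains, Col23a1, a transmembrane collagen, moved in opposite directions in DSS and TRUC. It was at 14.8, 14.3 and 13.3 CPM in DSS against 4.72, 5.19 and 5.57 CPM in the WT controls, a log2 change of 1.45 ± 0.27 (adjusted p = 0.000314, edgeR). In TRUC it was at 3.32, 2.31, 2.56 and 3.01 CPM against 4.78, 7.04 and 8.00 CPM in the Rag2 controls, a change of -1.23 ± 0.26 (adjusted p = 0.00068). Neither pair overlapped, and the F test over the 6 models gave an adjusted p of 2.88e-05. Col28a1 fell in the IL10 group (-1.34 ± 0.25, adjusted p = 0.000123) and TCT (-1.19 ± 0.27, 0.00148), and Col25a1 in TRUC (-2.05 ± 0.67, 0.0155) and the IL10 group (0.0172). Col25a1 was counted 0 to 6 times in a library of the IL10 group and 1 to 3 times in one of TRUC, and its calls were lost without WT control mouse 2 or IL10 mouse 1 (up to 0.0785) and without Rag2 control mouse 2 (0.0724). Both are expressed by glial or nerve cells in other tissues, and enteric glia markers summed to 9.09 to 20.7 CPM in the IL10 group against 26.3 to 40.1 in the WT controls, to 5.40 to 11.7 in TRUC against 23.2 to 28.5 in the Rag2 controls and to 15.1 to 20.0 in TCT against 24.3 to 31.0 in the Rag1 controls (1 of 4 lower in the test). Col28a1 did not pass in TRUC, nor Col25a1 in TCT. Neither gene passed in DSS, DNBS or anti-CD40, where these markers summed to 55.6 to 94.5, 22.9 to 28.2 and 10.3 to 27.2 CPM. Their part in these values was not tested.

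The enzymes and partners that make, process and bind collagen were followed in 6 lists of 85 genes, 84 of them tested. They were higher for 39 and lower for 3 in DSS, 19 and 1 in DNBS, 20 and 6 in TCT, 14 and 19 in TRUC, 12 and 30 in the IL10 group and 5 and 11 in anti-CD40, to be read beside the shares of all genes given above. Another control or tool moved some of these counts: 25 were higher in TRUC with DESeq2 or with edgeR on the 2 groups alone, 10 were higher in DNBS with the latter, 10 were higher and 11 lower in TCT against the WT controls, and 19 were lower in anti-CD40 against the Rag2 controls. Of 17 genes for modification and folding of the chains, 8 were higher in DSS (17.7% of all genes) and 4 in DNBS (3.95%) and none lower (16.3% and 2.21%). In the IL10 group 3 were higher (27.2%) and 7 lower (26.1%). P4hb, the subunit shared by the enzymes that hydroxylate proline and also a general folding enzyme of the endoplasmic reticulum, was higher in 5 models, from 444 ± 14.8 to 1174 ± 79.2 CPM in TRUC (log2 change 1.40 ± 0.13, adjusted p = 5.19e-08, edgeR) and by 0.98 ± 0.13 in the IL10 group (2.46e-06), where most collagens that changed were lower. The DNBS call (0.55) was lost without DNBS mouse 14 (0.43, adjusted p = 0.115) or WT control mouse 2 (0.0764). In DSS its log2 change was 0.23 ± 0.13 (0.194).

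Of 12 genes for procollagen processing and cross-linking 7 were higher in DSS (17.7% of all genes), 5 in TCT (16.1%), 3 in TRUC (22.4%), 2 in DNBS (3.95%) and 1 in the IL10 group (27.2%), where 2 were lower (26.1%). Lox, the enzyme that cross-links fibrils, was higher in 5 models, among them DNBS (49.8 ± 46.0 against 7.25 ± 0.897 CPM, log2 change 2.78 ± 0.48, adjusted p = 0.00232, edgeR), TCT (1.93 ± 0.50, 0.00455) and the IL10 group (1.26 ± 0.45, 0.0216). The IL10 call was lost without WT control mouse 1 or 2 or IL10 mouse 4 (up to 0.0764), that of TCT against the WT controls (0.106) and that of DSS (1.75 ± 0.47, 0.00605) without DSS mouse 8 (0.0727). In anti-CD40 the change was 0.78 ± 0.50 (0.282). The proteoglycans and glycoproteins that coat fibrils were lower for 11 of 17 in the IL10 group (26.1% of all genes), 7 in TRUC (23.4%) and 4 in anti-CD40 (10.7%) and higher for 6 of 17 in DSS (17.7%). Lum fell by 1.53 in the IL10 group (SE 0.22, 6.31e-06), Ogn by 1.26 in DSS (SE 0.29, 0.00199) and Fmod by 3.92 in TRUC (SE 0.54, 8.36e-06).

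Basement membrane partners were higher for 8 of 16 in DSS (17.7% of all genes), 7 in TCT (16.1%), 6 in DNBS (3.95%), 3 in TRUC (22.4%), 3 in the IL10 group (27.2%) and 1 in anti-CD40 (10.9%). They were lower for 3 in TCT (14%) and 3 in the IL10 group (26.1%). The one shared by all 6 models was Lama1, a laminin chain, with log2 changes of 1.47 ± 0.39 (anti-CD40, adjusted p = 0.0101, edgeR) to 2.66 ± 0.39 (TCT, adjusted p = 1.31e-05); in DNBS (1.64 ± 0.37) the call was lost without mouse 14 (0.147) or WT control mouse 1 or 2. Lamb2, a chain of mature muscle and vascular basement membrane, was lower in TRUC (-1.28 ± 0.20, 3.81e-05), the IL10 group (-0.96 ± 0.20, 0.000472), anti-CD40 (-0.77 ± 0.22, 0.0154) and TCT (-0.66 ± 0.22, 0.0256), where without single mice the last 2 reached up to 0.0944 and 0.0946. Without DNBS mouse 14 only 1 of the 84 list genes was higher in DNBS, and without 1 of the WT controls 2 to 9 were, and without DSS mouse 8 the count higher in DSS was 19 instead of 39.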

How the data were processed

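RNA was extracted from colon segments of 29 mice in 9 groups, and poly(A) libraries were made with a kit that does not mark strand. The table the authors deposited holds raw counts for each gene in each mouse. The submitters' processing notes name Trimmomatic, HISAT2, HTSeq and GRCm38, and versions and counting settings are not given in the sources used here. Counts were used as deposited, without the 92 spike-in rows, all at 0. Symbols and coordinates are those of GENCODE M21 (GRCm38), promoter windows those of RefSeq (GRCm38.p6), and proteins were not analysed here. Groups follow the labels. H2-Ea-ps counts were used to describe libraries, in a division of them described without a test, and to choose the WT controls as a second control for TCT.

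The 18616 genes with mean counts of 3 or more were fitted with edgeR 4.0.16 (TMM scaling, quasi-likelihood F test, 1 model over the 9 groups, R 4.3.3, limma 3.58.1), with p-values adjusted over all tested genes by Benjamini-Hochberg and a threshold of 0.05. CPM are counts relative to the scaled library size, and all errors of CPM are SD and of log2 changes SE. Depth was 10725564 to 14977094 counts (median 12287039), and the limit of detection of 3 counts covers counting error only. No 2 libraries of a group agreed within sampling noise (lowest chi-square per degree of freedom 3.42 over 33 pairs). Ratios of transcripts were compared by two-sided exact permutation tests.

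The members and gene lists were chosen with earlier results of these data known. Values per mouse were given for Col1a1, Col1a2, Col3a1, Col4a1 and Col4a2, for members past the threshold in 1 direction in at least 4 models, and for the 3 with the largest change in each direction and model at 1 CPM or more, 19 in all. From each other list up to 3 genes were named, by the number of models past the threshold and then by mean size of change. A gene so chosen is not reported here. Other genes, among them Col5a1, Col5a3, Col6a1, Col6a3, Col8a1, Col14a1, Col16a1, Col24a1, Col25a1, Col27a1 and Col28a1, were named after their values were seen. Alternatives were RLE scaling, no filter, DESeq2 1.42.0 and edgeR on the 2 groups alone, a replicate block where mouse numbers recur, the other control group for TCT and anti-CD40, and leaving out each mouse. The statistics were tested on simulated data. Figures used Python 3.11.15, pandas 2.3.3 and matplotlib 3.10.9.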

Additional observations from a re-analysis of the deposited data

Results flagged for a closer look

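For 16 of the 19 members described mouse by mouse the change differed between the 6 models in edgeR's F test of equal change. It did not for Col4a1, Col4a3 and Col7a1, where a missed threshold does not show equal changes. The test passed for 60.5% of all genes. Apart from Col1a1, Col1a2, Col3a1, Col4a1 and Col4a2, the 19 were chosen by their calls in these same contrasts, which favours unequal changes. The adjusted p was 4.03e-10 for Col4a6, 1.27e-05 for Col4a5, 2.88e-05 for Col23a1, 0.000161 for Col5a2, 0.000363 for Col11a1, 0.000747 for Col3a1 and 0.00211 for Col8a2. It was 0.00438 for Col6a4, 0.00637 for Col20a1, 0.00975 for Col6a5, 0.0112 for Col22a1, 0.0132 for Col1a2, 0.0134 for Col17a1, 0.0161 for Col1a1, 0.0194 for Col4a2 and 0.0397 for Col18a1. For Col4a6 and Col6a5 the TCT comparison, which crosses the H2-Ea-ps states, enters this test.

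Of 66 sets of mice examined for a value far from the rest, 2 held one, where chance gives about 5% of sets. All 66 sets came from TRUC and the IL10 group, the only groups of 4 mice. Groups of 3 mice, DNBS with its mouse 14 among them, were too small for the rule and were not examined. Col6a4 in TRUC mouse 4 was at 4.94 CPM against 7.81, 7.81 and 8.27 CPM in the other mice, a gap of 0.862 of the group's range. In the IL10 group the ratio of Col4a1 to Col4a2 reads was 1.56 in mouse 4 and 1.44 to 1.45 in the other 3, a gap of 0.909 of the range.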

How the results depend on the processing

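Limits come first from single mice: without DNBS mouse 14 or WT control mouse 2 only 1 collagen gene was higher in DNBS. At counts under about 10 (Col4a3, Col4a6 within the H2-Ea-ps libraries, Col11a1 and Col24a1 in the IL10 group, Col22a1, Col25a1) calls hung on a few reads. Without the filter on low counts 0 members were lower in DNBS. DESeq2 on the 2 groups called 8 members and 25 list genes higher in TRUC, 13 members higher and 0 lower in DSS, 0 lower in DNBS and 10 higher in TCT. With edgeR on the 2 groups alone 7 members and 25 list genes were higher in TRUC, 9 members in TCT, and in DNBS 0 members were higher and 0 lower (12 higher at an unadjusted p under 0.05), with 10 list genes higher and 0 lower. With the WT controls TCT had 10 list genes higher and 11 lower, and with the Rag2 controls anti-CD40 had 19 lower. TCT reversed against the WT controls for Col4a6 (-0.89, adjusted p = 0.0210, edgeR), Col6a5 (0.58, 0.311) and the procollagen enhancer Pcolce2 (-0.50, 0.314). The causes of these shifts were not tested.

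Leaving out single mice, members higher and lower ranged over 1 to 2 and 8 to 11 in TRUC, 6 to 9 and 1 to 1 in DSS, 1 to 10 and 0 to 1 in DNBS, 2 to 4 and 16 to 18 in the IL10 group, 4 to 6 and 4 to 6 in TCT, 1 to 1 and 2 to 10 in anti-CD40, and 1 to 2 lower in Rag2 against WT controls. Members that differed between models ranged from 29 to 32. List genes ranged over 10 to 14 and 14 to 19 in TRUC, 19 to 45 and 2 to 3 in DSS, 1 to 23 and 0 to 2 in DNBS, 7 to 12 and 27 to 31 in the IL10 group, 16 to 20 and 2 to 7 in TCT, and 3 to 5 and 3 to 20 in anti-CD40.

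Mouse numbers shared between a model and its control did not mark pairs, with correlations of deviations of -0.0266 to 0.0282. With a replicate block 2 members were higher and 22 lower in the IL10 group, and 3 and 10 in TRUC. Over the changes of named members and list genes, 2062 recomputed values kept direction and side of the threshold, 210 lost it and 40 gained it.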

Other observations

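Gp6, the collagen receptor of platelets, was lower in all 6 models, from 4.62 ± 0.485 to 0.231 ± 0.194 CPM in TRUC (SD, n = 3 and 4, log2 change -4.27 ± 0.58, adjusted p = 6.22e-06, edgeR) and from 3.88 ± 0.816 to 0.279 ± 0.134 CPM in the IL10 group (-3.75 ± 0.58, adjusted p = 1.68e-05). In DNBS (-1.81, adjusted p = 0.0383) the call was lost without any 1 of 5 mice, and in TCT (-1.78, adjusted p = 0.0211) without TCT mouse 3 or 5. Lair1, an inhibitory collagen receptor of leukocytes, was higher in 5 models, by 3.50 ± 0.33 in TCT (adjusted p = 2.96e-08) and by 2.23 ± 0.30 in DSS (adjusted p = 1.24e-05). In the same comparisons all 4 general leukocyte markers were higher, and their part in the Lair1 values was not tested. The anti-CD40 call of Lair1 was lost without anti-CD40 mouse 7 (0.96, adjusted p = 0.0903) and against the Rag2 controls (0.171). Itga2, a subunit of the collagen receptor of epithelium and platelets, was higher in the IL10 group (1.86 ± 0.37, adjusted p = 0.000218), TRUC (1.33 ± 0.36, adjusted p = 0.00465) and DNBS (1.54 ± 0.38, adjusted p = 0.0188, and 0.105 without DNBS mouse 14).

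Among signals known to drive matrix production, 6 of 12 were higher (17.7% of all genes) and none lower (16.3%) in DSS. In the IL10 group 3 were higher (27.2%) and 2 lower (26.1%), and in anti-CD40 0 (10.9%) and 3 (10.7%). Tgfb1 was higher in 5 models, from 14.2 ± 2.78 to 42.4 ± 20.2 CPM in DSS (log2 change 1.58 ± 0.29, adjusted p = 0.000219, edgeR), and in anti-CD40 had a change of -0.17 (adjusted p = 0.719). It was also higher in the IL10 group (1.27 ± 0.27, adjusted p = 0.000495), where 19 collagen genes were lower. The DNBS call was lost without DNBS mouse 14 (0.88, adjusted p = 0.128) or WT control mouse 2 (0.0718), and the TRUC call without Rag2 control mouse 1 or 2 (up to 0.0624). Il11 was higher in DSS, from 0.313 ± 0.132 to 12.2 ± 14.9 CPM (5.20 ± 1.12, adjusted p = 0.00102), and without DSS mouse 8 the change was 3.47 (adjusted p = 0.0197). Pdgfd was lower in the IL10 group (-2.17 ± 0.28, adjusted p = 2.80e-06), TRUC (-1.38 ± 0.28, adjusted p = 0.000429) and anti-CD40 (-1.19 ± 0.31, adjusted p = 0.0092, and 0.0536 without anti-CD40 mouse 7).

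Col26a1, too low to be tested, was counted 18 times in DSS mouse 6.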
